A study of Mus musculus with 3 samples.

Results

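The genes described here make, sense and break down prostaglandins and leukotrienes, lipid mediators derived from arachidonic acid. They are Ptgs1, Ptgs2, Ptges, Ptgis, Ptgds, Ptger2, Ptger4, Ptgfr, Hpgd and Ggt5, 10 of the 19751 genes that could be named on the arrays, and they were taken by gene symbol, older names included, with every probe of each gene. They were read by 12 probes, since Ptges and Hpgd had 2 probes each. The cells were MCECs, primary endothelial cells grown from the penile erectile tissue of C57BL/6 mice with serum, heparin and vascular endothelial growth factor A. The labels give 1 array to cells in normal glucose (5 mmol), with the treatment given as none, 1 array to high glucose (30 mmol) and 1 array to high glucose (30 mmol) with 200 pmol of an siRNA against Ninj1, the gene of the adhesion protein ninjurin 1, each after 48 h. The RNA of each array was a pool of 3 numbered samples. The treatment text is the same for all samples, so whether the first 2 groups were transfected, or with a control siRNA, is not given in the sources used here. The comparisons ask how high glucose and the Ninj1 siRNA alter expression, but a single array stood for each group, so no test or p-value could be given and "higher" and "lower" compare single arrays. 3 signals in a row are those of the normal-glucose, high-glucose and siRNA labels, in that order, as processed signals before scaling unless stated otherwise.

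Prostaglandin synthesis starts when phospholipases free arachidonic acid from membranes. The cyclooxygenases, encoded by Ptgs1 and Ptgs2, convert it to the unstable intermediate prostaglandin H2, and terminal synthases turn that into individual prostanoids, which act through G protein-coupled receptors. In blood vessels, prostacyclin made by endothelial and smooth muscle cells relaxes smooth muscle and restrains platelets, and in erectile tissue prostaglandin E relaxes the smooth muscle of the corpus cavernosum. Leukotrienes come from the same fatty acid through 5-lipoxygenase, and the peptide chain of leukotriene C4 is trimmed outside the cell by gamma-glutamyltransferases and dipeptidases.

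Of 39429 probes, between 67.0% and 70.6% were well above background on each array, and no spot was saturated. The siRNA target went against the labels: Ninj1 gave signals of 20413, 16291 and 25539, and after scaling was higher by 0.42 on the log2 scale under the siRNA label than under that of high glucose. The group words in the file names exchange the 2 high-glucose arrays. By the slide position inside each file the arrays are 2, 3 and 1, and by file name 1, 3 and 2. Arrays are therefore called by their labels, and each direction below belongs to the array so labelled. With the 2 high-glucose arrays exchanged, the differences between siRNA and high glucose turn and those between siRNA and normal glucose become the small ones now between high and normal glucose (Ggt5 from -4.48 to 0.085). With arrays taken by the slide position inside the files, directions change too (Ggt5 at 4.56 between siRNA and normal glucose). All arrays were on 1 slide, read in 1 scan. The endothelial markers were mixed: Kdr, at 7440, 7298 and 8278, and Egfl7, at 3355, 3194 and 5967, were bright on every array, while Tie1, Emcn, Erg and Sox18 were not well above background on any array, Pecam1 gave signals of 61.9, 76.5 and 72.4, and Cdh5 gave 166, 185 and 618. All 11 fibroblast markers were above background on every array, from Dpt, at 863, 929 and 129, to Dcn, at 435886, 432729 and 380630. In such bulk RNA, fewer cells of a type and less RNA per cell cannot be told apart.

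The promoters of 4 of the 5 members that differed by at least 2-fold between the siRNA and high-glucose labels are shown, so that those of Ptgs2 and Ptges, on the higher side, can be set against those of Ptger4 and Hpgd, on the lower. The RefSeq promoter table of GRCm38.p6 held an entry for 8 of the 10 members, not for Ptgis and Ggt5. The 250 bases before the transcription start are printed 5′ to 3′ on the gene's strand, at chr1:150099781-150100030 (plus strand) for Ptgs2, chr2:30903298-30903547 (minus strand) for Ptges, chr15:5244188-5244437 (minus strand) for Ptger4 and chr8:56294302-56294551 (plus strand) for Hpgd. Capitals mark matches, on either strand, to the C/EBP motif TTGCNNAA, the cAMP response element core TGACGT, the AP-1 motif TGANTCA, the GC box GGGCGG, the CCAAT box, the E-box CACGTG and the NF-kappaB motif.
Ptgs2: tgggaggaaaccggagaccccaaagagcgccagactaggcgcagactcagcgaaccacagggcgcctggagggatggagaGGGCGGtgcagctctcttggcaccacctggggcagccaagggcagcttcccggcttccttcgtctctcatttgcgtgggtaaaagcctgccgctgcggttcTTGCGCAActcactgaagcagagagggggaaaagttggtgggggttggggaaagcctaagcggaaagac
Ptges: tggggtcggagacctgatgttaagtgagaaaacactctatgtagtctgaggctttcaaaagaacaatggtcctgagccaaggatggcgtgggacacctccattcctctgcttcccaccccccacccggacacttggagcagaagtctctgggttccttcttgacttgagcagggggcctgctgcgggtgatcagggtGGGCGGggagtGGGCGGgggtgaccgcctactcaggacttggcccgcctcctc
Ptger4: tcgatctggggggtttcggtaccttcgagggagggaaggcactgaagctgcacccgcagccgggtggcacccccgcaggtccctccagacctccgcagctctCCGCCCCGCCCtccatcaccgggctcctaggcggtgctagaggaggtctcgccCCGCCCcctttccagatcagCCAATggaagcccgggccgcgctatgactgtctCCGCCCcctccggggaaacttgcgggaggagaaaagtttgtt
Hpgd: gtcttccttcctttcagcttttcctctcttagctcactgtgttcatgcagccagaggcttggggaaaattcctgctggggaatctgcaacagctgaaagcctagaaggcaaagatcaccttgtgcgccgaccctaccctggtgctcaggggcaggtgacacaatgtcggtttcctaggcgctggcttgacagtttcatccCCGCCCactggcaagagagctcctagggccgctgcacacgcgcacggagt

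Ptgs2 held the palindromic C/EBP match TTGCGCAA at position -69 from the start, 1 GC box, and, in the first 50 bases after the start, a cAMP response element core at position 13 that overlapped an E-box at position 17. Of the 8 members with an entry, Ptgs2 was the only one with the cAMP response element core or the E-box in the window of 300 bases, which 7.51% and 7.15% of all 32851 promoters of that length held. The C/EBP motif was in 10.8% of them, and Ptger2 held it too. Ptges held 2 GC boxes close to the start, Ptger4 held 4 and a CCAAT box (in 37.4% of all promoters), and Hpgd held 1 GC box, a motif found in 35.7% of all promoters. The genes on the higher and the lower side therefore both carried GC boxes. Of the 8 entries Ptgds alone held an AP-1 or NF-kappaB match in the window, which 7.81% and 8.46% of all promoters held. A match is a string of letters and does not show that a factor binds there.

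Both cyclooxygenase genes gave bright signals on every array, and both were higher on the array labelled siRNA, Ptgs2 past 2-fold and Ptgs1 not. Ptgs2, the inducible cyclooxygenase, was read by 1 probe printed as 10 spots per array. On the array labelled normal glucose its processed signal ran from 37131 to 38917 with a median of 37776 (9 spots used), on the array labelled high glucose from 32837 to 36660 with a median of 34085 (9 spots), and on the array labelled siRNA from 75516 to 89367 with a median of 85476 (10 spots). Before scaling, the spots of the siRNA label lay above all spots of the other arrays. Those of the high-glucose and normal-glucose labels did not overlap before scaling either, so spots also separated where the difference was small. How often the spots of other repeated probes separated was not counted. The 75th percentile of the whole array differed too, at 1780 for the normal-glucose and 1729 for the high-glucose label. Scaling by it left a log2 difference of -0.11 between these 2 labels, within the scanner software's error of 0.20 for a difference of 2 arrays. With 1 array per label, the gap between their spots is not read as a difference in Ptgs2. The SD over spots was 0.02, 0.05 and 0.07 on the log2 scale, which covers spot noise and not the spread between cultures. After subtraction of each array's 75th percentile, Ptgs2 was 2.14-fold higher under the siRNA label than under that of high glucose and 1.99-fold higher than under the normal-glucose label (log2 differences 1.10 and 0.99). It was 1.08-fold lower under the high-glucose than under the normal-glucose label.

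**Figure D1:**
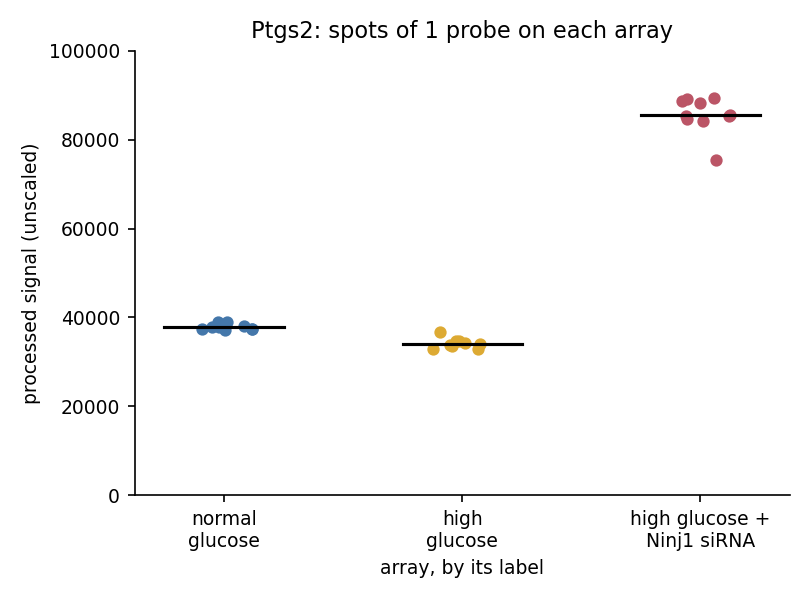
Processed signal of the spots of the Ptgs2 probe, before scaling, on the arrays labelled normal glucose (9 spots), high glucose (9 spots) and high glucose with Ninj1 siRNA (10 spots). Each point is 1 spot and each bar the median; the points of the siRNA label start at 75516, above the highest point of the other arrays at 38917.

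Ptgs1, the constitutive cyclooxygenase, gave signals of 36489, 33598 and 49546, from 1 spot each. After scaling it was 1.26-fold higher under the siRNA label than under that of high glucose, a log2 difference of 0.33 against an error of 0.20. That error is the scanner software's own estimate for each spot, carried to a difference of 2 arrays, and it holds no culture or hybridisation error. The Ptgs1 difference was well short of that of Ptgs2, and with quantile normalization or cyclic loess it was 0.20, no longer beyond that error.

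Of the terminal synthases, Ptges was higher under the siRNA label and Ptgis and Ptgds were at nearly the same level on all arrays. Ptges, the inducible microsomal prostaglandin E synthase that works together with Ptgs2, gave signals of 31652, 30063 and 70546 on its brighter probe and 4266, 4083 and 13706 on the other. Both probes were highest under the siRNA label and nearly equal on the other arrays. Against the high-glucose label the brighter probe was 2.01-fold higher (log2 difference 1.00, error 0.20) and the other 2.87-fold higher (1.52, error 0.20). Against the normal-glucose label they were 1.96-fold and 2.83-fold higher. The sizes of the probes differed by more than their errors, while the direction was shared. Ptgs2 and the brighter Ptges probe lay close to 2-fold: with quantile normalization their log2 differences from the high-glucose label were 0.93 and 0.87, and with cyclic loess 0.96 and 0.87.

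Ptgis, the prostacyclin synthase, gave 37082, 35682 and 46791, and after scaling was 1.12-fold higher under the siRNA than under the high-glucose label (log2 difference 0.16, error 0.20). That difference lay within the error of the spots. Ptgds, the lipocalin-type prostaglandin D synthase, was dim at 34.1, 33.0 and 42.2 and differed by 0.13 with an error of 0.27. Normexp background correction turned the Ptgds difference to -0.15.

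The receptor genes went different ways under the siRNA label. Ptger2, encoding the EP2 receptor of prostaglandin E2, which raises cAMP, gave 477, 449 and 755 and was 1.44-fold higher than under the high-glucose label (log2 difference 0.52, error 0.20). Ptger4, encoding EP4, the other cAMP-raising receptor of prostaglandin E2, gave 44.9, 44.7 and 22.0 and was 2.38-fold lower (-1.25, error 0.33). These partner receptors of 1 ligand therefore differed in opposite directions on these arrays. Ptger4 was dim, and with normexp background correction its difference was -0.54, under 2-fold. Ptgfr, encoding the FP receptor of prostaglandin F2 alpha, gave 2298, 2178 and 1745 and was 1.46-fold lower (-0.55, error 0.20), short of 2-fold. Against the normal-glucose label the same genes were 1.39-fold higher, 2.32-fold lower and 1.5-fold lower in that order.

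The differences farthest to the lower side were those of Ggt5 and Hpgd, genes of leukotriene conversion and prostaglandin breakdown. Ggt5, the gamma-glutamyltransferase that converts leukotriene C4 to leukotriene D4, gave signals of 521, 537 and 26.6, above background on all arrays. It was 23.6-fold lower than under the high-glucose label (log2 difference -4.56, error 0.26) and 22.3-fold lower than under the normal-glucose label (-4.48). Of 15362 genes compared between the siRNA and high-glucose labels, 13 had a lower value than Ggt5. With normexp background correction the difference was -2.93. Ggt5 rests on 1 probe with 1 spot per array.

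Hpgd, the dehydrogenase that inactivates prostaglandins in the cell, gave 45.9 and 35.2 on its brighter probe under the normal-glucose and high-glucose labels and 7.87 under the siRNA label, which was not well above background. It was at least 3.52-fold lower than under the high-glucose label and at least 4.46-fold lower than under the normal-glucose label. For such a bound the dim array was given the lowest signal that counted as well above its background, or the probe's own value where that was higher. With normexp background correction the bound against the high-glucose label was -0.80 on the log2 scale, under 2-fold. The second Hpgd probe, at 12.5, 12.7 and 3.91, was too dim to count as above background on any array and gives no fold. Hpgd was thus dim wherever it could be read.

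**Figure D2:**
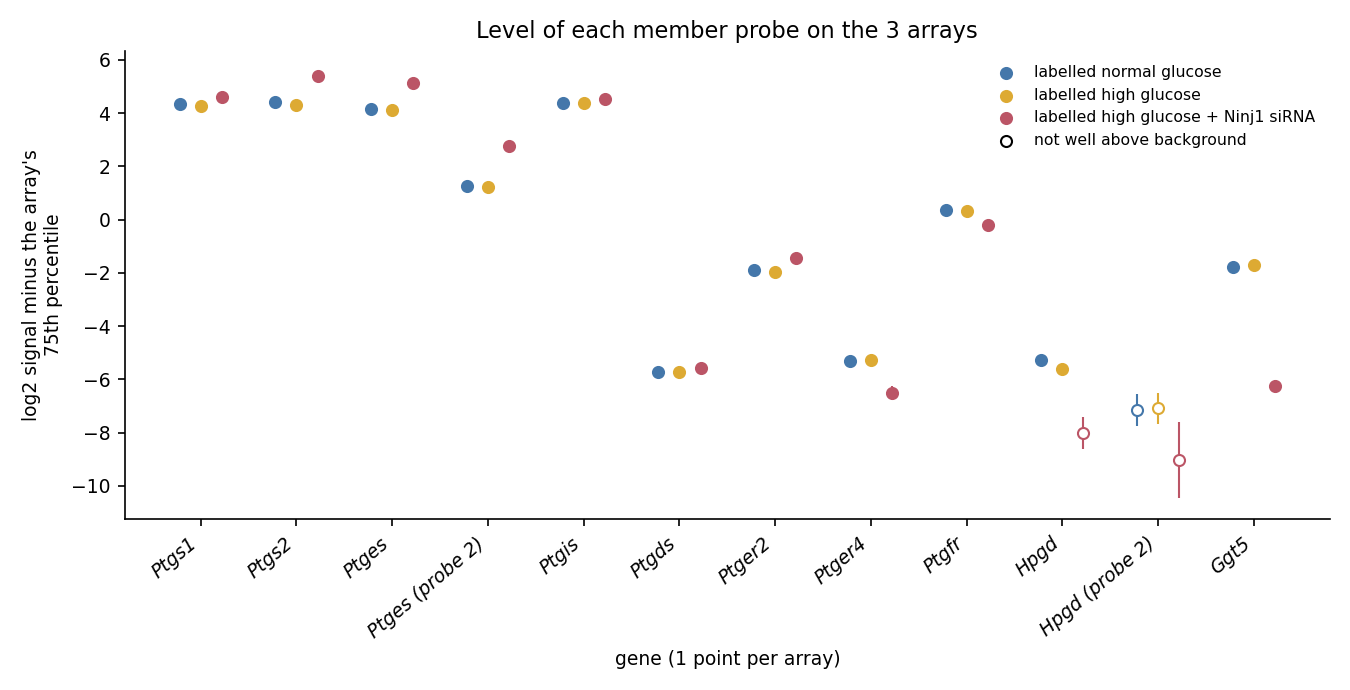
Level of each of the 12 member probes by the labels normal glucose, high glucose and high glucose with Ninj1 siRNA, as log2 signal minus the array's 75th percentile, with the scanner software's error as bars (often smaller than the point) and open points where the probe was not well above background. The normal-glucose and high-glucose points lie next to each other for each probe, and the siRNA points stand above them for Ptgs2 and Ptges and below them for Ptger4, Hpgd and Ggt5; probes differ in brightness, so heights are not compared between genes.

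Between the siRNA and high-glucose labels, 2 of 10 members (Ptgs2 and Ptges) were at least 2-fold higher, where 6.63% of all genes compared were, and 3 (Ptger4, Hpgd and Ggt5) were at least 2-fold lower, where 8.35% of all genes were. Just inside 2-fold lay Ptges at 1.00, and the nearest members outside were Ptgfr at -0.55 and Ptger2 at 0.52, well short of the log2 value of 1. In all 7 members differed by more than 2 errors of their spots, and Ptgs1, Ptgis and Ptgds did not. The share of all genes past 2 errors was not computed. Of 15362 genes compared, 2540 lay above Ptger2 and 2629 below Ptgfr, the members of the 7 nearest to 0 on each side. Differences of that size were therefore common among all genes. The median over the 10 members was 0.14, against 0.02 over all genes. Against the normal-glucose label none was at least 2-fold higher (background 6.48%), Ptgs2 and Ptges lying just short of it, and the same 3 were at least 2-fold lower (background 8.08%). Both comparisons use the array labelled siRNA, so they are not independent.

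Between high glucose and normal glucose, by label, every member but Hpgd lay within the central 95% of genes measured on both arrays (-0.26 to 0.30). No member reached 2-fold in either direction, where 0.816% of 15081 genes were past it to the higher side and 0.69% to the lower. The log2 differences ran from -0.34 for Hpgd to 0.08 for Ggt5, with a median of -0.03 against -0.01 over all genes. Hpgd was the single member beyond the error of its spots (0.28), and with normexp background correction its difference was -0.03. Ptgs2 was at -0.11, Ptgs1 at -0.08, Ptger2 at -0.05, Ptgfr at -0.04, Ptges at -0.033, Ptgis at -0.014, Ptgds at -0.0037 and Ptger4 at 0.03. By the labels, no member thus differed by 1.5-fold or more between high and normal glucose. This does not hold under the other assignments: with the 2 high-glucose arrays exchanged Ggt5 was at -4.48, Ptger4 at -1.21 and Ptgs2 at 0.99, and by slide position Ggt5 was at 4.48.

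**Figure D3:**
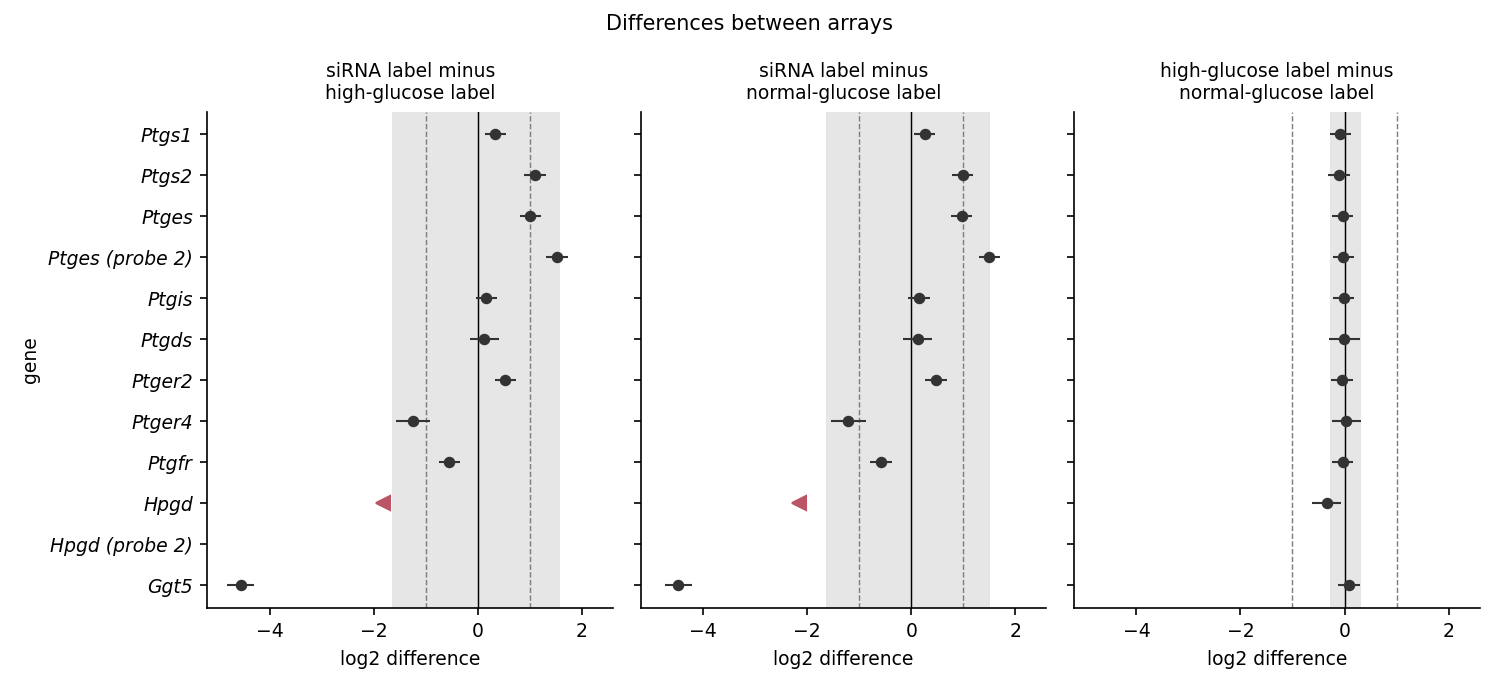
Log2 differences of the 12 member probes for the siRNA label minus the high-glucose label, the siRNA label minus the normal-glucose label, and the high-glucose label minus the normal-glucose label. Bars are the scanner software's error of a difference, triangles are bounds, dashed lines mark 2-fold, the grey band holds the central 95% of genes measured on both arrays, and the second Hpgd probe has no value. Ggt5 lies at -4.56 and -4.48 in the first 2 panels. In the last the members lie near 0, with Hpgd at -0.34 outside the band.

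Other genes of the pathway and 12 inducers and transcription factors upstream of Ptgs2, together called pathway genes here, were 68 in 9 lists by role. Of these 56 could be compared between the siRNA and high-glucose labels, with a median of -0.10. Past 2-fold were 4 to the higher side and 8 to the lower, where 6.63% and 8.35% of all genes were. Against the normal-glucose label 3 of 56 were past 2-fold to the higher side and 7 to the lower, where 6.48% and 8.08% of all genes were. Between high and normal glucose the counts were 2 and 1 of 58, where 0.816% and 0.69% of all genes were. Among phospholipases, 2 secreted enzymes had the largest differences. Pla2g5, group V secreted phospholipase A2, gave 31.7, 37.1 and 302 and was 6.97-fold higher than under the high-glucose label on the probe that could be read. Pla2g2e, of group IIE, gave 1666, 1677 and 10373 and was 5.29-fold higher, with a log2 difference of 2.06 on its second probe. Pla2g4a, the cytosolic phospholipase A2 that supplies cyclooxygenases, differed by 0.24 and Plaat3, a phospholipase and acyltransferase, by 0.026, while the dim Pla2g4c, at 51.1, 45.4 and 19.1, was 2.78-fold lower. Of the 12 genes 11 could be compared, with 2 past 2-fold to the higher and 1 to the lower side.

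Among the prostanoid synthases and reductases, 1 of 7 genes compared was past 2-fold. Akr1c18, an aldo-keto reductase that acts on progesterone and prostaglandins, gave 17306, 17116 and 56971 and was 2.84-fold higher under the siRNA than under the high-glucose label. Ptges2 and Ptges3, the further prostaglandin E synthases, differed by 0.016 and 0.27. Akr1b3, an aldose reductase with prostaglandin F synthase activity, gave log2 differences of -0.59 on its brighter probe and -1.15 on the other. Hpgds, the haematopoietic prostaglandin D synthase, was too dim to count as above background.

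Of the receptors outside the members, 5 of 7 genes could be compared and 2 were at least 2-fold lower under the siRNA label. Tbxa2r, the thromboxane receptor, gave 634, 577 and 115 and was 5.90-fold lower than under the high-glucose label. Ptger3, encoding EP3, was at least 2.85-fold lower on its brighter probe, which was not well above background under the siRNA label. Its other probe, measured on both arrays, gave a log2 difference of -0.95. Ptgir, the prostacyclin receptor, and Ptgfrn, a partner of the FP receptor, differed by 0.10 and -0.06. Of the 5 genes of prostaglandin transport and breakdown none was past 2-fold. The transporters Abcc4 and Slco2a1 were 1.83-fold and 1.65-fold higher, and the reductases Zadh2 and Ptgr1 1.29-fold and 1.32-fold lower.

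In the leukotriene branch, none of the 7 genes of synthesis and export was past 2-fold under the siRNA label against the high-glucose label. Abcc1, the exporter of leukotriene C4, gave 6152, 5811 and 13341 and was 1.96-fold higher. Alox5ap, which presents arachidonic acid to 5-lipoxygenase, was 1.84-fold lower, and Alox5, Lta4h and Ltc4s differed by -0.048, -0.06 and -0.35. Dpep1, a dipeptidase that converts leukotriene D4 to leukotriene E4 in the step after Ggt5, gave 1992, 1959 and 608 and was 3.77-fold lower. Dpep3, another dipeptidase, was at least 11.8-fold lower, read under the high-glucose label alone. The Ggt5 paralogs Ggt1 and Ggt7 differed by 0.24 and -0.22, and Ggt6 was too dim to count as above background. Of the receptors, Cysltr1, for cysteinyl leukotrienes, was 2.25-fold lower on its brighter probe, with a log2 difference of -0.49 on the other. Ltb4r1, for leukotriene B4, was 1.30-fold higher.

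Of other lipoxygenases, Aloxe3, an epidermal enzyme, was 2.10-fold higher under the siRNA than under the high-glucose label, and Alox12b and Alox12 differed by 0.10 and -0.097. Alox12e, read under the high-glucose label alone, was at least 5.13-fold lower. In a list of 12 inducers and transcription factors known upstream of Ptgs2, 10 could be compared, 1 was past 2-fold and the median was -0.17. Tnf, at 31.3, 29.8 and 11.4, was at least 2.96-fold lower, and Il1a and Il1b were not well above background on any array. Egr1, an immediate early transcription factor, was 1.69-fold higher. Cebpb, Rela and Jun differed by 0.04, -0.048 and 0.12, and Cebpd by -0.39.

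**Figure D4:**
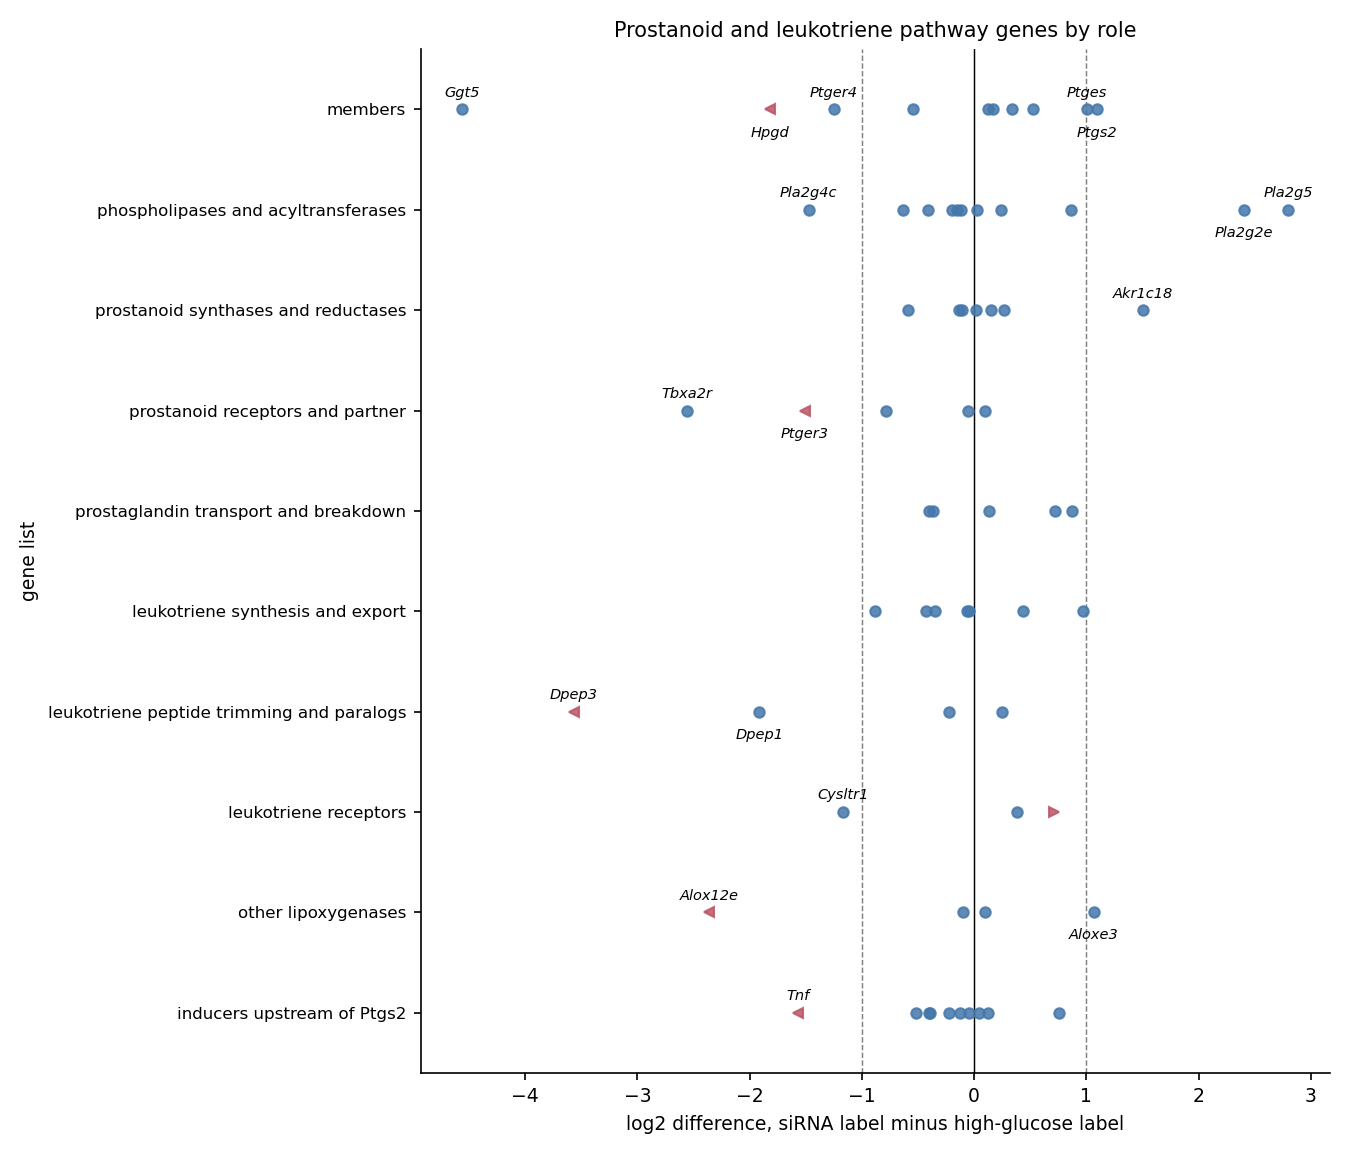
Log2 difference between the siRNA and high-glucose labels for the 10 members and the 56 other pathway genes that could be compared, 1 point per gene, by role. Triangles are bounds, dashed lines mark 2-fold and genes past it are named; Pla2g5 and Pla2g2e lie farthest to the higher side and Ggt5 farthest to the lower side.

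Markers of other cell types also differed between the siRNA and high-glucose labels, in both directions, and their part in the results was not tested. Between the siRNA and high-glucose labels, 5 of 11 fibroblast markers and 4 of 8 smooth muscle and pericyte markers compared were at least 2-fold lower. Their medians were -0.86 and -0.72, and 8.35% of all genes were at least 2-fold lower. The summed fibroblast signal was 984072, 967168 and 769201, and that of smooth muscle and pericytes was 98282, 97089 and 59085. Of the 8 macrophage markers compared, Adgre1, Lyz2 and Ptprc gave log2 differences of -2.06, -2.05 and -1.25 and Cd14 one of 1.52, and the summed signal was 11233, 10696 and 21323, of which Cd14 gave 5420, 4989 and 16711. The 10 endothelial markers compared had a median of -0.18, with 2 past 2-fold to the higher side and 4 to the lower (6.63% and 8.35% of all genes were). Their summed signal was 11315, 11069 and 15374, mostly from Kdr and Egfl7, and after scaling 6.36, 6.40 and 7.60. Mast cell markers summed to 725, 700.5 and 765, but after scaling to 0.407, 0.405 and 0.378, lowest under the siRNA label. Fcer1a, Cma1 and Ms4a2 were not well above background on any array. The platelet list summed to 2845, 1805 and 3315, mostly from Pf4, with Gp9 and Gp1ba not well above background on any array. Epithelial markers summed to 248, 243 and 672, and Epcam, Cdh1 and Krt8 were not well above background. No marker of these 7 lists was past 2-fold between high and normal glucose by label, where 0.816% of all genes were to the higher side and 0.69% to the lower.

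**Figure D5:**
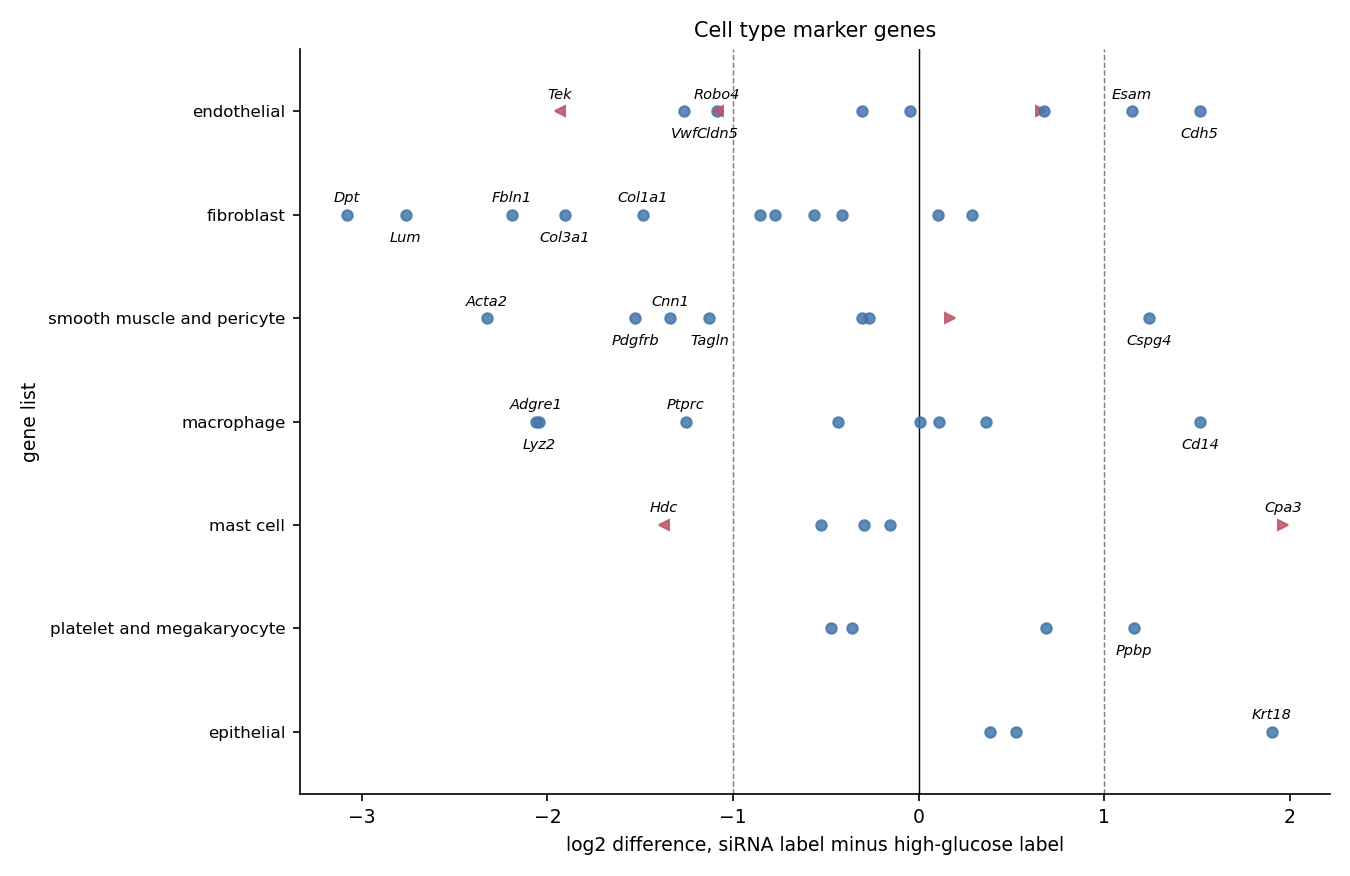
Log2 difference between the siRNA and high-glucose labels for the marker genes of 7 cell types that could be compared, 1 point per gene, with triangles for bounds, dashed lines at 2-fold and names for genes past it. Most fibroblast and smooth muscle markers lie on the lower side, and endothelial and macrophage markers lie on both sides.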

How the data were processed

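Expression was measured on 3 single-colour (Cy3) arrays, 1 per group. Per the file headers, the authors' deposited intensity values are background-subtracted signals from Agilent Feature Extraction 11.0.1.1, and the probes were annotated on mm9. The deposited series value table holds linear intensity equal to the same array's processed signal within 0.1% for 100% of 38999 probes with 1 spot. Its column medians were 118, 118 and 129, and how repeated spots were combined is not given in the sources used here. Outlier spots were left out, log2 signals were averaged per probe, and each array's 75th percentile was subtracted. A probe counted as above background where the software's mark held for at least 50% of its spots. Probes were named by accession through the RefSeq table of GRCm38.p6 (26055 of 39429 probes), so no array coordinates are given. For a gene with several probes the brightest of those above background on any array stood for it (15764 genes), and all probes of members are given. Spots of 300 repeated probes had a median SD of 0.06 (log2). The number of arrays limits the precision.

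The members and lists were chosen with earlier results of these data known. All members were named, and of the pathway lists each gene past 2-fold between the siRNA and high-glucose labels plus up to 2 bright genes per list; further genes named were chosen after their values were seen. The computation was also tested on simulated data that held spot noise but no culture or hybridisation spread. Alternatives were quantile normalization, cyclic loess, median scaling, normexp with an offset of 50 on median spot and background signals (limma 3.58.1), the value table, other filters on dim probes, the mean over probes, 1.5-fold and 3-fold thresholds, and the 2 high-glucose arrays exchanged. Assignment by slide position and the use of outlier spots were added after the data were seen.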

Additional observations from a re-analysis of the deposited data

How the results depend on the processing

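No paired analysis was possible because each group had 1 array, and no replicate could be left out. Apart from the assignment of arrays, the alternatives that gave a value kept the direction of the 5 members past 2-fold between the siRNA and high-glucose labels. Hpgd gave none where probes had to be above background on every array. Its other values were bounds, except -2.39 without a filter on dim probes, which used the dim signal itself. The log2 differences of these 5 members ranged from 0.93 to 1.11 for Ptgs2, 0.87 to 1.26 for Ptges and -1.25 to -0.54 for Ptger4. For Hpgd they ranged from -2.39 to -0.80 and for Ggt5 from -4.56 to -2.93. With the 2 high-glucose arrays exchanged the 5 differences became -1.10, -1.004, 1.25, 1.82 (a bound) and 4.56. Against the normal-glucose label Ptger4 became 0.035 and Ggt5 0.085. With arrays assigned by slide position, Ptgs2, Ptges, Ptger4 and Ggt5 became -0.11, -0.033, 0.035 and 0.085 between siRNA and high glucose, and Ptger4, Hpgd and Ggt5 became 1.25, 1.82 and 4.56 between siRNA and normal glucose.

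For siRNA against high glucose, the 2 members at least 2-fold higher became 0 with quantile normalization, cyclic loess, slide position and a 3-fold threshold and 1 with normexp, and the 3 lower became 1 with normexp and 0 with slide position. The 4 higher pathway genes became 8 with exchanged arrays, 2 with slide position, 10 at 1.5-fold and 2 at 3-fold. The 8 lower became 3 with normexp, 4 with exchanged arrays, 1 with slide position, 4 with probes above background on every array and 4 at 3-fold. For siRNA against normal glucose, the 0 higher members became 3 with slide position, 1 with the mean over probes and 2 at 1.5-fold, and the 3 lower became 1 with normexp and 0 with exchanged arrays. The 3 higher pathway genes became 8 with slide position and 9 at 1.5-fold, and the 7 lower became 2 with normexp, 1 with exchanged arrays, 4 with slide position, 4 with probes above background on every array and 11 at 1.5-fold. For high against normal glucose, the 0 higher members became 3 with slide position and the 0 lower became 3 with exchanged arrays. The 2 higher pathway genes became 1 with normexp, 7 with slide position and 0 with probes above background on every array, and the 1 lower became 0 with cyclic loess, normexp, that filter and 3-fold, 7 with exchanged arrays and 3 with slide position. Another assignment relabels the same arrays and another threshold recounts the same differences, so counts change by construction. The filter on every array tests fewer genes. The cause of the changes with the other alternatives was not tested. Ptgds, Ptger4 and Hpgd were close to background, which limits their folds. The same limit holds for Ggt5 under the siRNA label, at 26.6 where the lowest signal well above background was 11.7.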

Other observations

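Over the differences between the 3 arrays (the high-glucose minus the normal-glucose label and the siRNA minus the high-glucose label), the genes nearest to Ggt5 among 14358 genes above background on every array were Fndc1, a fibronectin type III domain gene, and Ms4a4d, at distances of 0.12 and 0.16 on the log2 scale. Nearest to Ptger4 were Irf1, an interferon regulatory factor, and Celf5 (0.018 and 0.022), and nearest to Ptgs2 were Mrpl15, a mitochondrial ribosomal protein gene, and Rab11fip1 (0.0082 and 0.012). With 3 arrays many genes share such a pattern by position alone, so the names are a description.

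A few pathway genes were read on a single array. Dpep3, a dipeptidase, gave signals of 3.51, 118 and 2.88 under the normal-glucose, high-glucose and siRNA labels. Alox12e, an epidermal lipoxygenase, gave 3.79, 51.2 and 6.79, and both were above background under the high-glucose label alone. Alox8 gave 34.2, 3.40 and 5.66 and Pla2g10 gave 24.4, 12.0 and 12.6, above background under the normal-glucose label alone. Each rests on 1 spot per array. Dpep3 and Alox12e are the pathway genes at least 2-fold higher under the high-glucose than under the normal-glucose label (at least 7.21-fold and 3.12-fold), and Alox8 is the one lower (at least 2.03-fold).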
